A study of Oryctolagus cuniculus with 4 samples.

Results

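Solute carriers are membrane proteins that move nutrients, ions, metals and signalling amines across the plasma membrane and the membranes of organelles. The members described here were all genes of the rabbit bladder count matrices whose symbol begins with SLC and a family number, apart from the mitochondrial carriers of family 25 and SLC7A11 and SLC44A4, which were left out by the same rule. There were 209 such genes among the 18475 genes of the matrices. At least 1 unique molecular identifier (UMI), which stands for 1 captured RNA molecule, fell on 190 of them in a kept cell, and none fell on the other 19. By family number the members were sorted into 21 substrate groups, of which the largest were the amino acid carriers (29 members), the metal carriers (26) and the carriers of nucleotide sugars and acetyl-CoA (19). SLC4A1AP and SLC7A6OS meet the rule by their symbols but are not transporters.

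Droplet-based single-cell RNA sequencing counted RNA from the 3′ end in bladder mucosa of 4 adult New Zealand rabbits, 1 library each. Injury_1 and Injury_2 were taken on day 10 after a focal piece of mucosa had been resected through its full thickness, when new urothelium had just closed over the wound, and Normal_1 and Normal_2 came from unwounded mucosa. The labels name no genetic change and no drug in either group. Where 4 values are listed below, they stand in the order Injury_1, Injury_2, Normal_1, Normal_2.

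The libraries held 46863011, 46395632, 28745017 and 47881609 UMIs, so Normal_1 was the shallowest, and 6081, 5529, 4308 and 6027 cells were kept. The labels call the tissue urothelium, but epithelial-like cells made up 6.98% of the 21945 kept cells, against 40.7% fibroblast-like and 24.3% endothelial-like cells. The other classes were smooth muscle and pericyte-like (2112 cells), T cell-like (1237), macrophage-like (1170), neutrophil-like (450), glia-like (117) and mast-like cells (106), and 952 cells stayed unnamed. The neutrophil-like class is the least settled: it joins cluster 17 (236 cells) and cluster 19 (214 cells, median 699.5 UMIs), and between 47.3% and 47.6% of its cells stayed in it under 3 other clusterings, which put more cells in the macrophage-like class. Levels are given as CPM, the UMIs on a gene divided by all UMIs of that class in that sample, times 1000000. CPM, shares and statements on overlap use these raw totals, whereas the log2 differences are also scaled by the TMM factors of edgeR.

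The urothelium lines the bladder, with KRT5-expressing basal cells at its base and uroplakin-bearing cells towards the urine. It holds urine back as a barrier, and transporters for glucose, urea, sodium, protons and potassium have long been studied in it. Some immune cells hold carriers that take metals and peptides out of phagosomes and lysosomes or load granules with amines.

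With the classes so defined, the members together took 0.288%, 0.245%, 0.232% and 0.227% of the UMIs of epithelial-like cells. The share was 0.318% and 0.268% in mast-like cells, which only the injured samples held in sufficient number (at least 20 cells), and it was lowest in T cell-like cells, at 0.156%, 0.168%, 0.149% and 0.153%. In the other 6 classes the means over samples lay between 0.173% and 0.235%. A few members carried much of each share: SLC38A2, SLC2A1 and SLC38A1 held 46.2% of the members' UMIs in epithelial-like cells, and SLC11A1, SLC38A2 and SLC15A3 held 40.2% in neutrophil-like cells, against 21.6% for the highest 3 in glia-like cells.

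**Figure D1:**
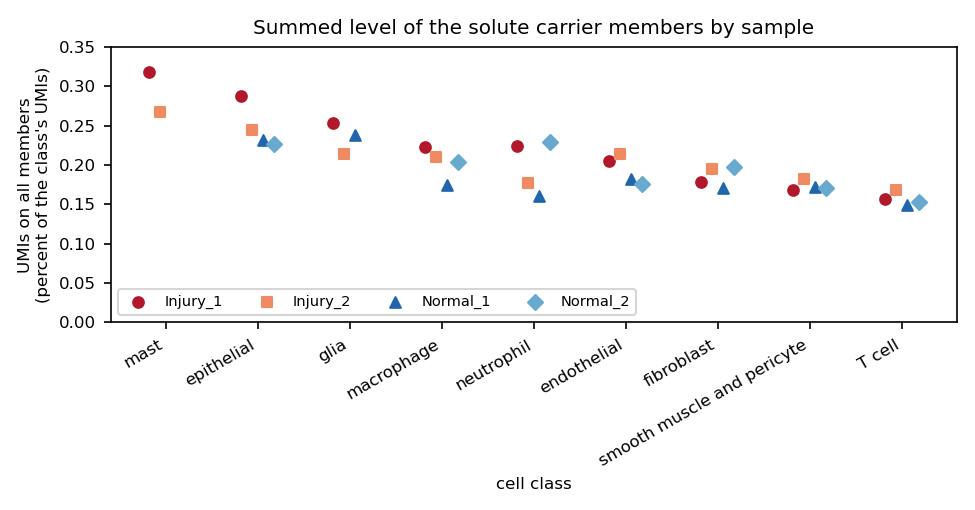
The y axis gives the UMIs on all 209 members as a percent of the UMIs of a class, and each point is 1 sample; samples with fewer than 20 cells of a class are left out. Both injured samples lay above both normal samples in epithelial-like, endothelial-like, macrophage-like and T cell-like cells, and the samples overlapped in the other tested classes. The shares are of raw UMI totals, without TMM factors.

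Most members were scarce. Only 63 of the 209 reached a mean of 20 CPM in any class and 15 reached 100 CPM. There were 6 members with at least 20 CPM in every class: the amino acid carrier SLC38A2, the sodium-bicarbonate carrier SLC4A7, the zinc carrier SLC39A7, the phosphate carrier SLC20A1, the sodium-proton exchanger SLC9B2 and SLC35B1, which serves the endoplasmic reticulum. By contrast, 25 members reached 20 CPM in 1 class alone. These counts lean on the 2 smallest classes, glia-like and mast-like cells, which held only 1056 and 534 UMIs on all members. Each was the highest class of 13 of the 63 members and the sole class of 5 of the 25. Because the classes are clusters of these same cells, differences between classes are given as levels with their spread over samples and without a test. Members were kept out of the genes used for clustering.

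**Figure D2:**
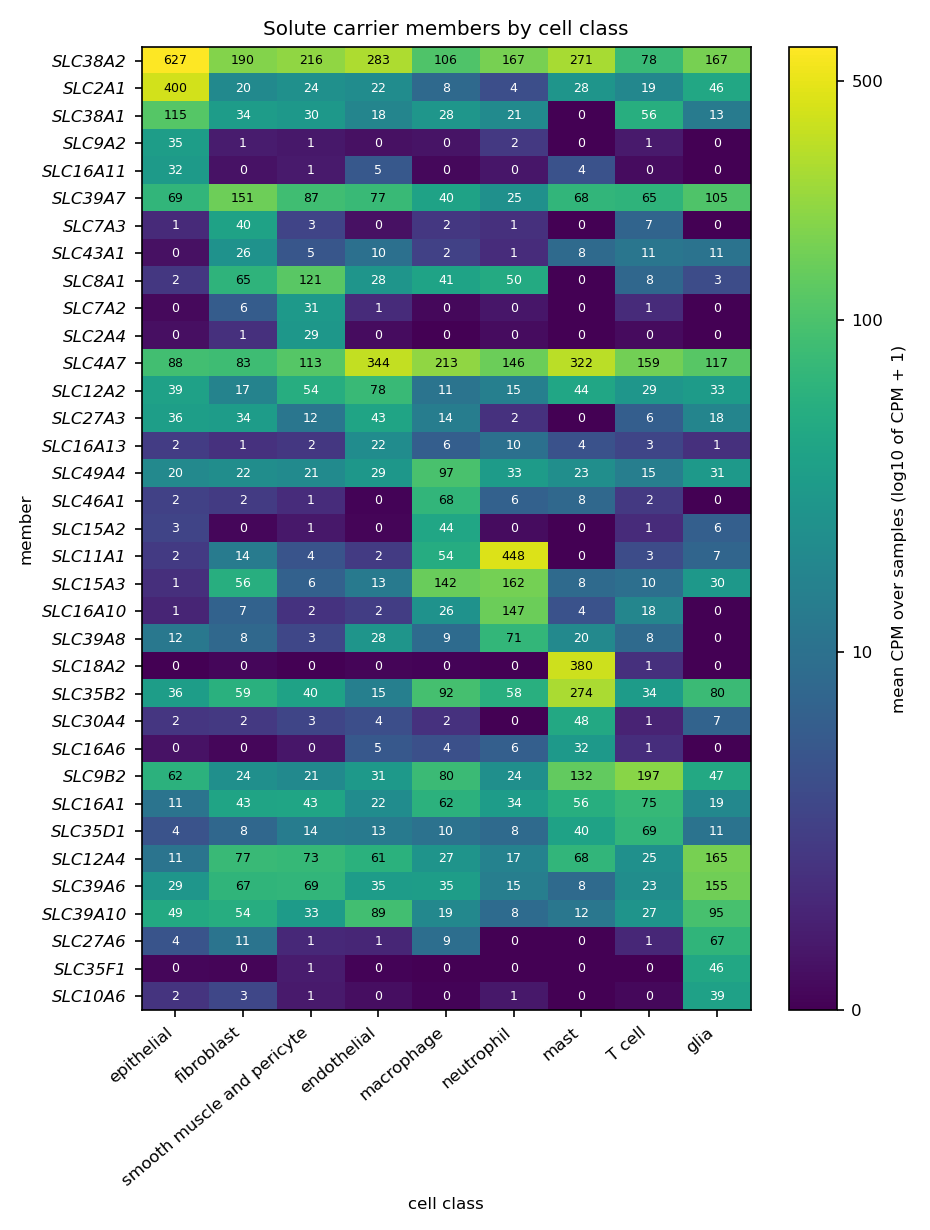
Each row is a member and each column a cell class, and the colour and the printed number are the mean CPM over samples (2 samples for mast-like, 3 for glia-like, 4 for all other classes; log colour scale). Rows should be read across classes: SLC2A1 stands at 400.3 in epithelial-like cells and at 46.5 or less elsewhere, SLC11A1 at 448 in neutrophil-like cells, and SLC18A2 at 380 in mast-like cells.

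Among the sugar carriers, SLC2A1 (ENSOCUG00000005924), the widespread facilitative glucose transporter, had 631, 399.9, 266 and 304 CPM in epithelial-like cells. The next class was glia-like at 46.5 ± 43.5 CPM (SD, n = 3), and no epithelial-like sample overlapped with it. SLC2A4, the insulin-responsive glucose transporter of muscle and fat, had 24.1, 29.2, 26.1 and 38.2 CPM in smooth muscle and pericyte-like cells, and its next class, fibroblast-like, was at 1.44 ± 0.71 (SD, n = 4). The whole group of 10 sugar carriers summed to 429.6 ± 168 CPM in epithelial-like cells (SD, n = 4) and to no more than 67.8 CPM on average in any other class. SLC2A9, a urate transporter, had 1 UMI in smooth muscle and pericyte-like cells, 2 in epithelial-like and 2 in fibroblast-like cells, too few to place it.

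The amino acid carriers were also highest in epithelial-like cells, at 773 ± 16.1 CPM summed over the group (SD, n = 4). SLC38A2, a sodium-coupled carrier of small neutral amino acids, had 613, 616, 649.9 and 629.7 CPM there, and its next class was endothelial-like at 283 ± 40.5 (SD, n = 4). SLC38A1, its close relative, had 118, 110.4, 117 and 114 CPM in epithelial-like cells and a mean of 56.05 in T cell-like cells, and no sample of these classes overlapped. Of the carriers of arginine and other cationic amino acids, SLC7A2 had 40.2, 31.5, 38.3 and 15.1 CPM in smooth muscle and pericyte-like cells, and SLC7A3 had 21.2, 22.9, 34.8 and 82.6 CPM in fibroblast-like cells, where Normal_2 stood far above the rest and the T cell-like samples overlapped. SLC43A1, a carrier of large neutral amino acids, reached 25.8 ± 5.37 CPM in fibroblast-like cells (SD, n = 4), above every sample of the next class, T cell-like. SLC16A10, a carrier of aromatic amino acids from the monocarboxylate family, had 191, 155, 189.9 and 51.9 CPM in neutrophil-like cells. All 4 samples lay above those of the next class, macrophage-like, at 25.7 ± 17.7 (SD, n = 4). The level came from cluster 17 (213, 164 and 197 CPM in Injury_1, Injury_2 and Normal_1), and cluster 19 had none in Injury_1 or Injury_2, so the order of these classes rests on how cluster 17 is named.

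Of the metal carriers, SLC11A1 (ENSOCUG00000016027), which moves iron and manganese out of the phagosome, had 436, 351, 205 and 802 CPM in neutrophil-like cells, on 462, 304, 27 and 139 UMIs. The normal samples sat at both ends of that range, with only 25 and 31 neutrophil-like cells. Its next class, macrophage-like, had 83.8, 56.5, 4.85 and 68.9 CPM, and all of these lay below the lowest neutrophil-like sample. SLC39A8, a zinc and manganese importer, had 71.1 ± 48.7 CPM in neutrophil-like and 28.01 ± 8.14 in endothelial-like cells (SD, n = 4), and the samples of these classes overlapped. It was found in cluster 17 (38.9, 25.8 and 126 CPM) and was at 0 in cluster 19 of Injury_1 and Injury_2. SLC11A1 was high in both, at 327, 297 and 197 CPM in cluster 17 and at 1382 and 1193 CPM in cluster 19. SLC39A7, which releases zinc from the endoplasmic reticulum, was highest in fibroblast-like cells (144, 169.7, 107 and 184 CPM), but these overlapped with glia-like cells. SLC39A6, a zinc importer, had 177, 131.5 and 157 CPM in the 3 glia-like samples, on 29, 30 and 10 UMIs. SLC40A1, the exporter of iron from cells, was low everywhere and had about the same mean in macrophage-like (15.4 ± 2.03 CPM) and fibroblast-like cells (14.7 ± 6.93; SD, n = 4 each). The zinc exporter SLC30A1 had a mean of 30.9 CPM or less in each class.

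Among the ion carriers SLC4A7, which brings bicarbonate into the cell with sodium, had 402, 369, 299.9 and 306 CPM in endothelial-like cells, and mast-like cells overlapped with them. SLC12A2, the sodium-potassium-chloride cotransporter, had 93.2, 103, 58.7 and 58.4 CPM in endothelial-like cells, and the next class, smooth muscle and pericyte-like, overlapped at 53.9 ± 11.8 (SD, n = 4). SLC12A4, a potassium-chloride cotransporter, had 214, 171 and 109.7 CPM in glia-like cells, above all fibroblast-like samples. SLC8A1, the plasma membrane sodium-calcium exchanger, had 104, 131, 141 and 107 CPM in smooth muscle and pericyte-like cells. That was above each fibroblast-like sample, whose mean was 64.9 ± 23.4 (SD, n = 4), and within the class it was high in cluster 12 (259, 277, 234 and 195 CPM) and low in cluster 7 (34.9, 54.1, 38.9 and 31.5 CPM). The small cluster 23 was as high as cluster 12 in the 3 samples with enough cells.

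SLC9A2, a sodium-proton exchanger of epithelial surfaces, had 64.7, 27.1, 28.8 and 19.1 CPM in epithelial-like cells, and the next class, neutrophil-like, had 1 UMI. SLC9B2, a sodium-proton exchanger of intracellular membranes, was highest in T cell-like cells, at 154, 322, 149 and 164 CPM, with Injury_2 alone far above the rest. SLC22A7, an organic anion carrier, had 48.8, 38.8, 50.4 and 87.1 CPM in epithelial-like cells, and all 4 were above the glia-like samples that came next (13.1 ± 6.13, SD, n = 3). The urea channel SLC14A1 was found in epithelial-like cells at 15.2, 12.6, 11.9 and 6.91 CPM and in endothelial-like cells at 5.64, 9.02, 23.4 and 2.61 CPM, and the samples of these classes overlapped. The other 7 classes had means of 0.574 CPM or less.

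The vitamin and haem carriers summed to 185 ± 23.5 CPM in macrophage-like cells and to 60.9 ± 10.9 in the next class, neutrophil-like (SD, n = 4 each). SLC46A1, the proton-coupled folate transporter, had 86.7, 79.2, 50.1 and 55.1 CPM there, and mast-like cells, the next class, had 15.4 CPM at most. SLC49A4, a lysosomal carrier, had 98.7, 104, 90.5 and 96.5 CPM in macrophage-like cells against 33.4 ± 7.71 in neutrophil-like cells (SD, n = 4). SLC15A2, a di- and tripeptide importer, had 57.2, 61.0, 14.5 and 42.7 CPM in the class as a whole. It was carried by cluster 9 (76.6, 102, 43.9 and 90.3 CPM), while cluster 15 had none in Injury_1, Injury_2, Normal_1 or Normal_2. SLC15A3, which exports peptides and histidine from lysosomes, was as high in neutrophil-like (162 ± 58.5 CPM) as in macrophage-like cells (142 ± 64.8; SD, n = 4 each), and the samples overlapped.

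Several carriers of vesicles and organelles had their highest level in the rarer cells. SLC18A2, which loads amines such as histamine and serotonin into granules, had 556 and 204 CPM in the 2 mast-like samples on 36 and 25 UMIs, and the next class, T cell-like, had a mean of 1.47 CPM. SLC35B2, the Golgi carrier of the sulphate donor PAPS, had 401 and 147 CPM in mast-like cells on 26 and 18 UMIs, above all macrophage-like samples (92.4 ± 6.14 CPM, SD, n = 4). SLC30A4, a zinc carrier of vesicles, had 3 and 6 UMIs in mast-like cells and SLC16A6, a carrier from the monocarboxylate family, had 2 and 4, so these levels rest on single molecules. In glia-like cells the orphan carrier SLC35F1 had 12.2, 48.2 and 78.4 CPM, the fatty acid carrier SLC27A6 had 73.3, 35.1 and 94.0 CPM, and the steroid sulphate carrier SLC10A6 had 36.7, 48.2 and 31.3 CPM, all on 12 UMIs or fewer per sample. T cell-like cells had the highest level of SLC35D1, a carrier of UDP-sugars into the endoplasmic reticulum, with 112, 74.1, 64.9 and 24.6 CPM, and of the lactate carrier SLC16A1 with 74.8 ± 23.9 CPM (SD, n = 4). For both of these the next class overlapped. SLC16A11, a monocarboxylate carrier, had its highest mean in epithelial-like cells, with 14.6, 62.7, 35.3 and 15.8 CPM, and SLC16A13, of the same family, had its highest mean in endothelial-like cells at 21.7 ± 4.14 CPM (SD, n = 4). Among the other members fixed for description, SLC4A4, SLC6A6, SLC22A3 and SLC29A1 did not exceed a mean of 22.04 CPM in any class. SLC2A3, SLC16A3, SLC3A2, SLC7A5, SLC1A5 and SLC39A14 had no row under these symbols and were not analysed here. Some genes of the matrices carry an Ensembl identifier only, so the members and group sums cover carriers listed by symbol.

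The first comparison asked which members differed between injured and normal mucosa within a class. UMIs were summed per sample and class, and edgeR tested all genes of the class together. In epithelial-like cells, 2 of the 81 members tested passed an adjusted p of 0.05, both higher after injury, and 117 of all 7046 genes passed (1.66%). The zinc carrier SLC39A11 (ENSOCUG00000000410) had 67.3, 52.5, 16.7 and 13.2 CPM, so both injured samples lay above both normal ones. It rose by 1.75 ± 0.26 on the log2 scale (SE, 2 against 2 samples, adjusted p = 0.0425). SLC3A1 (ENSOCUG00000005464), the heavy subunit of the cystine and dibasic amino acid transporter, had 11.035, 8.72, 1.14 and 0.658 CPM, on 80, 49, 6 and 2 UMIs. It rose by 3.14 ± 0.47 (SE, adjusted p = 0.0425), from a level near the limit of detection in the normal samples.

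Both calls were lost when either injured sample was left out or with a mitochondrial limit of 10%, and the direction stayed the same in each case. With the replicate number as a block edgeR called none of the 81 members and 58 of 7046 genes. DESeq2 called 5 of 160 members in this class and 485 of 12059 genes (4.02%), and in edgeR 22 of the 81 members had an unadjusted p under 0.05 (all genes: 20.5%). The samples also differed in detected markers. Of the class's cells 69.3%, 40.4%, 26.98% and 14.6% had a uroplakin UMI and no KRT5 UMI. A KRT5 UMI and no uroplakin UMI was found in 8.13%, 18.4%, 32.9% and 33.9%. These shares depend on detection as well as on make-up, and UPK3B itself had 236, 82.2, 35.7 and 11.2 CPM in the class. By cluster, cluster 8 held 368 of 566, 212 of 354, 246 of 441 and 58 of 171 cells, and cluster 13 held the rest. In the uroplakin cells SLC39A11 had 81.5, 71.3, 31.02 and 41 CPM, and in the KRT5 cells 23.1, 37.1, 8.602 and 7.38 CPM. Injured samples were thus above normal ones within each kind of cell, by 1.03 ± 0.32 and 1.62 ± 0.46 on the log2 scale (SE, adjusted p = 0.271 and 0.122). SLC3A1 had 13.3, 13.4, 2.07 and 2.41 CPM in the uroplakin cells (log2 difference 2.55 ± 0.61, SE, adjusted p = 0.166), and 5, 5, 0 and 1 UMIs in the KRT5 cells. No member passed within either kind of cell, where edgeR called 5 of 5517 (0.0906%) and 45 of 4892 genes (0.92%), and 8 of 53 and 10 of 40 members had an unadjusted p under 0.05 (all genes: 11.3% and 21.7%).

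**Figure D3:**
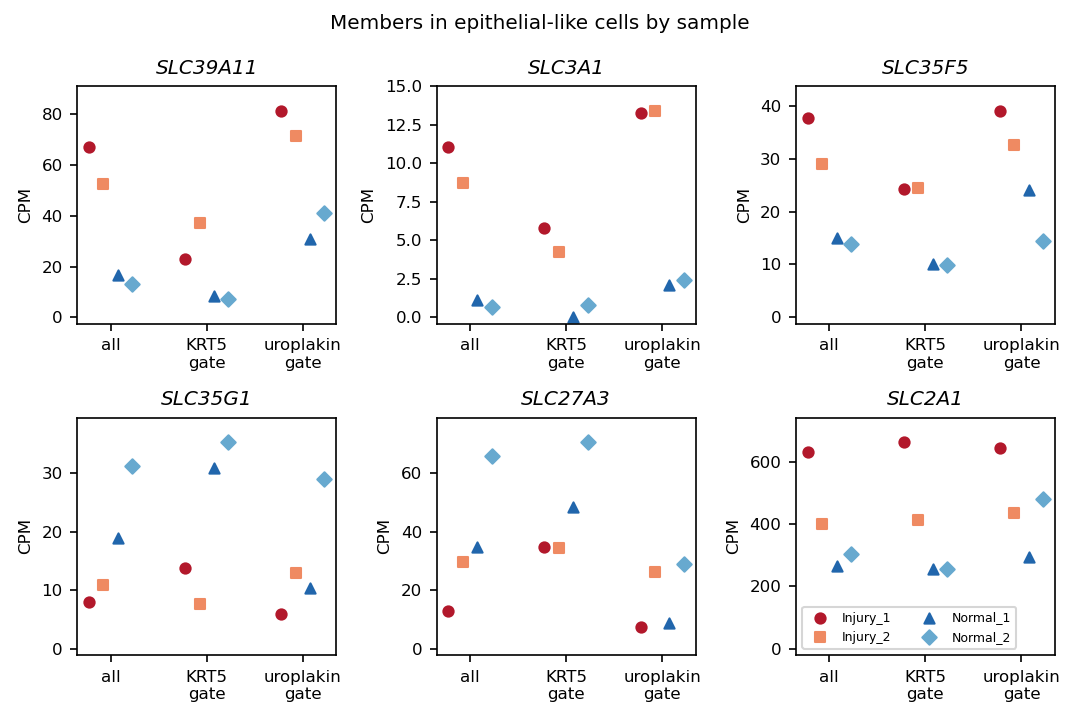
The y axes give CPM in all epithelial-like cells, in those with KRT5 and no uroplakin UMI and in those with a uroplakin and no KRT5 UMI, and each point is 1 sample. SLC39A11, SLC3A1 and SLC35F5 lay higher in both injured samples in all 3 sets of cells, whereas for SLC35G1, SLC27A3 and SLC2A1 the groups overlapped in the uroplakin cells. In the KRT5 cells SLC35G1 and SLC27A3 lay lower and SLC2A1 lay higher in both injured samples.

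Other members of the epithelial-like cells differed without passing the test. SLC35F5, an orphan carrier of the nucleotide sugar family, had 37.7, 29.02, 14.98 and 13.8 CPM (log2 difference 0.96 ± 0.28, SE, adjusted p = 0.140). SLC35G1, which belongs to the same family number, had 8.001, 10.9, 18.96 and 31.2 CPM (-1.68 ± 0.44, SE, adjusted p = 0.113). SLC27A3, a fatty acid carrier with acyl-CoA ligase activity, had 12.97, 29.6, 34.9 and 65.8 CPM (-1.52 ± 0.56, SE, adjusted p = 0.211). For all 3 of these members the groups did not overlap. Of the 16 metal carriers tested in this class, 1 rose, none fell, 11 had a positive and 5 a negative log2 difference, and their median was 0.19 against -0.0039 for all genes. Of the 8 amino acid carriers, 1 rose, and 6 had a negative difference. Both injured samples lay above both normal ones for 30 of the 81 members (all genes: 39.4%) and below them for 17 (all genes: 15.5%). Fibroblast markers summed to 1096, 1596, 148 and 1849 CPM in this class (none of the 5 markers was at 0), so that Normal_1 stood apart. Neutrophil markers (136, 138, 32.8 and 69.1 CPM) and the class's own epithelial markers (7466, 6787, 4350 and 5315) were higher in both injured samples, and mast markers (6.62, 1.96, 14.98 and 18.1) were lower, with CPA3 and MS4A2 at 0. The part of these in the results was not tested.

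Fibroblast-like cells had no member past the threshold among 102 tested, and no gene among 8768 (0%). At an unadjusted p under 0.05 edgeR had 12 members (all genes: 11.1%), and DESeq2 called 1 of 176 members and 259 of 13618 genes (1.9%). Of the members named for the size of their difference, SLC8A1 had 89.6, 78.8, 52.1 and 38.9 CPM (log2 difference 1.02 ± 0.24, SE, adjusted p = 0.222). SLC2A1 had 27.3, 24.8, 15.8 and 13.7 CPM (0.95 ± 0.24, SE, adjusted p = 0.254). Injured samples were above normal ones for SLC2A1 in each of the 5 fibroblast-like clusters, and for SLC8A1 in 4 of them. Epithelial markers summed to 67.5, 32.2, 102 and 21.4 CPM in fibroblast-like cells, and the groups overlapped, with Normal_1 the highest. Macrophage markers (49.03, 31.3, 5.46 and 7.96 CPM), neutrophil markers (175, 53.8, 13.3 and 27.2), T cell markers (16.004, 7.06, 2.96 and 1.45) and the class's own fibroblast markers (89327, 95759, 46556 and 61826) were higher in both injured samples, and their part in the results was not tested. SLC7A3 had 21.2, 22.9, 34.8 and 82.6 CPM (-1.33 ± 0.46, SE, adjusted p = 0.383). Its level varied between clusters, and cluster 1, where the groups overlapped, held 1269 of the 3258 fibroblast-like cells of Normal_2 against 181 of 2036 in Injury_1. SLC10A6, the steroid sulphate carrier, had the smallest unadjusted p among the members of this class, on few molecules, with 99, 106, 4 and 4 UMIs (4.25 ± 0.59, SE, adjusted p = 0.113), and was highest in cluster 5 (17.1, 16.3, 1.97 and 0 CPM).

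**Figure D4:**
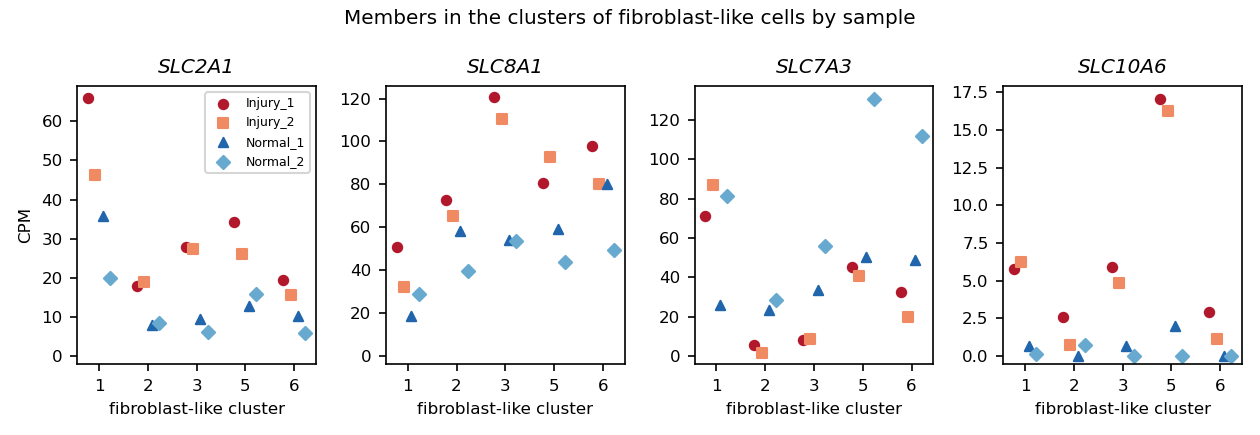
The y axes give the CPM of 4 members in the 5 clusters of fibroblast-like cells, and each point is 1 sample. Both injured samples lay above both normal samples in all 5 clusters for SLC2A1 and SLC10A6, in 4 for SLC8A1, and below them in 4 for SLC7A3.

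Of the 20 metal carriers tested in fibroblast-like cells, none passed, 13 had a negative log2 difference, and both injured samples lay below both normal ones for 11, with a median of -0.21 against 0.00 for all genes. The zinc importer SLC39A6 was one of the 11, with 55.3, 55.9, 87.6 and 70.3 CPM (-0.38 ± 0.22, SE, adjusted p = 0.624). Over all 102 members, 30 lay lower in both injured samples and 15 higher, and the same held for 27.7% and 16.1% of all genes in the class, so the members' counts were close to the background.

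In endothelial-like cells edgeR called none of 84 members and no gene of 7502 (0%), and 6 members had an unadjusted p under 0.05 (all genes: 7.05%). DESeq2 called none of 152 members and 52 of 12573 genes (0.414%). SLC27A3 had 63.0, 54.3, 34.2 and 18.5 CPM (1.10 ± 0.30, SE, adjusted p = 0.525), with injured samples higher in the 3 endothelial-like clusters that had enough cells. SLC12A2 had an unadjusted p of 0.0228, with the levels given above (0.65 ± 0.21, SE, adjusted p = 0.635). SLC26A2, a sulphate carrier, had 14.7, 27.7, 12.9 and 9.61 CPM, and SLC39A7 had 78.0, 61.7, 78.6 and 88.9 CPM, so that Injury_1 and Normal_1 hardly differed for either. Both injured samples lay above both normal ones for 21 of the 84 members and below for 6, against 24.5% and 12.7% of all genes. In smooth muscle and pericyte-like cells edgeR called none of 66 members and no gene of 6489 (0%), with 3 members at an unadjusted p under 0.05 (all genes: 9.6%). DESeq2 called none of 145 members there and 73 of 11733 genes (0.622%). The potassium-dependent sodium-calcium exchanger SLC24A3 had 41.2, 46.4, 23.8 and 25.4 CPM (0.85 ± 0.25, SE, adjusted p = 0.391) and was higher in injured samples in both clusters that could be compared. Of the zinc importers, SLC39A10 had 29.01, 22.4, 45.8 and 36.4 CPM (-0.65 ± 0.27, SE, adjusted p = 0.520) and SLC39A6 had 69.6, 84.0, 61.4 and 59.4 CPM (0.37 ± 0.23, SE, adjusted p = 0.693), and for both the groups overlapped within cluster 12. SLC49A4 had 17.1, 15.6, 23.2 and 26.5 CPM. In this class macrophage markers (49.98, 53.2, 9.85 and 6.44 CPM), neutrophil markers (138, 223, 17.4 and 39) and T cell markers (33.6, 8.76, 4.64 and 7.95) were higher in both injured samples and endothelial markers (66.4, 57.4, 192 and 245) lower. In endothelial-like cells macrophage markers (36.6, 10.2, 7.46 and 5.48) and T cell markers (29.4, 30.9, 25.2 and 15.8) were higher, and smooth muscle and pericyte markers (29.3, 28.9, 40.2 and 54.5) lower. Their part in the results was not tested. Among the 66 members, 10 were higher in both injured samples and 9 lower, against 20.2% and 20.4% of all genes.

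Immune cells were few in the normal samples, which limits what could be seen. In T cell-like cells edgeR called none of 37 members and 18 of 4958 genes (0.363%), and 3 members had an unadjusted p under 0.05 (all genes: 17.6%). DESeq2 called none of 127 members and 127 of 10483 genes (1.21%). The phosphate carrier SLC20A1 came closest, at 26.7, 21.5, 64.9 and 69.5 CPM (-1.60 ± 0.28, SE, adjusted p = 0.0679), and it was lower in both injured samples in the 2 clusters that could be compared. It passed when Normal_1 or Normal_2 was left out. SLC4A7 had 197, 207, 130 and 104 CPM (0.68 ± 0.24, SE, adjusted p = 0.227) and SLC35D1 was higher in injured samples by 1.02 ± 0.44 (SE, adjusted p = 0.306). SLC39A10 had 26.97, 16.96, 33.7 and 30.4 CPM. Fibroblast markers summed to 6579, 3595, 5181 and 13421 CPM in these cells, and the groups overlapped. Neutrophil markers (453, 685, 19.2 and 34.8 CPM), macrophage markers (107, 238, 12.03 and 92.7), proliferation markers (105, 148, 28.9 and 39.1) and the class's own T cell markers (2709, 2203, 2020.5 and 1780.3) were higher in both injured samples. Plasma markers (76.5, 89.3, 421 and 259), mast markers (25.1, 46.4, 86.6 and 89.8) and endothelial markers (38.6, 35.6, 123 and 52.15) were lower. Their part in the results was not tested. The members above both normal samples numbered 9 of 37 and those below 7, against 31.5% and 18.8% of all genes.

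In macrophage-like cells edgeR called none of 60 members and no gene of 5404 (0%), with 6 members at an unadjusted p under 0.05 (all genes: 14.2%). DESeq2 called none of 144 members and 70 of 10888 genes (0.643%). SLC16A10 had 46.8, 33.04, 16.2 and 6.89 CPM (1.74 ± 0.42, SE, adjusted p = 0.174), and SLC15A3 had 204, 177, 56.6 and 128 CPM (0.92 ± 0.40, SE, adjusted p = 0.364). Both of these are also neutrophil-like members, and the neutrophil markers, which macrophages share in part, summed to 39550, 29575, 22396 and 39311 CPM in the class, with Normal_2 as high as Injury_1. T cell markers (686, 603, 577 and 375 CPM) were higher in both injured samples. The class's own macrophage markers (16667, 13306, 17593 and 20765), endothelial markers (378, 275, 508 and 404) and smooth muscle and pericyte markers (70.5, 38.8, 116 and 154) were lower. Their part in the results was not tested. SLC39A6 had 34.9, 16.04, 51.7 and 37.2 CPM, but the groups overlapped within both macrophage-like clusters. Cluster 15, where its level was higher, held 131 of 522, 162 of 433, 60 of 111 and 39 of 104 macrophage-like cells. The part of this share in the difference was not tested. SLC44A1, a choline carrier, had 17.6, 16.7, 17.8 and 34.5 CPM. Of the 60 members, 22 were higher in both injured samples and 10 lower (all genes: 29.5% and 17.2%). In neutrophil-like cells edgeR called none of 21 members and no gene of 2593 (0%), and 1 member had an unadjusted p under 0.05 (all genes: 5.63%). DESeq2 called none of 107 members and 2 of 8670 genes (0.0231%). The member with an unadjusted p under 0.05 in edgeR was SLC39A8, with 34.9, 24.2, 122 and 104 CPM on 37, 21, 16 and 18 UMIs (-1.94 ± 0.41, SE, adjusted p = 0.829). SLC38A2 had 254, 168, 137 and 109.6 CPM, and SLC35E4 and SLC38A1 rested on 2 to 6 UMIs per normal sample. Here 5 of the 21 members were higher in both injured samples and 4 lower, against 18.3% and 16.1% of all genes. The class's own neutrophil markers (85892, 86065, 98875 and 100400 CPM) were lower in both injured samples, and smooth muscle and pericyte markers (72.6, 43.8, 7.60 and 28.8) were higher. Their part in the results was not tested.

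The summed level of all members was tested as 1 value per sample. In epithelial-like cells it was 0.266% ± 0.0303 in injured and 0.230% ± 0.0036 in normal samples, and in endothelial-like cells 0.2096% ± 0.0056 and 0.179% ± 0.0041 (SD, n = 2 each, two-sided exact permutation p = 0.33 for both). That p is the smallest that 2 samples against 2 can give. T cell-like and macrophage-like cells gave the same p, and fibroblast-like, smooth muscle and pericyte-like and neutrophil-like cells overlapped (exact permutation p = 1.0). These shares were not scaled by TMM factors. Normal_2 had the lowest factor in epithelial-like (0.833), endothelial-like (0.902), T cell-like (0.949) and macrophage-like cells (0.925). Scaling would thus raise Normal_2 against the other samples, and whether the groups would then overlap was not tested.

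The second comparison asked how members differ between basal and more superficial epithelial-like cells of the same rabbits. Cells with a KRT5 UMI and no uroplakin UMI (46, 65, 145 and 58 cells) were set against cells with a uroplakin UMI and no KRT5 UMI (392, 143, 119 and 25 cells), with the rabbit as a block. The uroplakins of the matrices were UPK1B and UPK3B, and no member took part in this choice. Epithelial-like cells with both (9.19%, 17.5%, 3.17% and 3.51%) or with neither (13.4%, 23.7%, 36.96% and 47.95%) were left out. Of 5601 genes tested 1020 passed (18.2%), and of 53 members 11 passed (5 higher in KRT5 cells, 6 higher in uroplakin cells), so the members' share was near the background. DESeq2 called 8 of 154 members and 754 of 11574 genes (6.51%), and 20 members had an unadjusted p under 0.05 in edgeR (all genes: 33.3%). Their median log2 difference was -0.22 against 0.01 for all genes.

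The members higher in uroplakin cells were carriers of protons, zinc, iron, vitamins and ions. SLC9A2, the sodium-proton exchanger, had 72.8, 34.95, 57.2 and 74.8 CPM in uroplakin cells and 23.1, 11.8, 11.1 and 9.84 CPM in KRT5 cells (log2 difference KRT5 to uroplakin -1.94 ± 0.24, SE, adjusted p = 0.000897). All 4 uroplakin values lay above all 4 KRT5 values. SLC39A11, the zinc carrier that was also higher after injury, had 81.5, 71.3, 31.02 and 41 against 23.1, 37.1, 8.602 and 7.38 CPM (-1.49 ± 0.25, SE, adjusted p = 0.00329). SLC5A6, the sodium-dependent carrier of biotin and pantothenate, had 24.3, 27.3, 15.9 and 24.1 against 8.08, 7.59, 8.602 and 6.56 CPM (-1.34 ± 0.31, SE, adjusted p = 0.0152). SLC40A1, the iron exporter, had 32, 18, 22 and 2 UMIs in uroplakin cells and 3, 3, 3 and 2 in KRT5 cells (-1.87 ± 0.50, SE, adjusted p = 0.0274). For SLC12A2 (-1.12 ± 0.25, SE, adjusted p = 0.0140) and SLC24A3 (-1.09 ± 0.27, SE, adjusted p = 0.0189) each of the 4 rabbits had the higher level in its uroplakin cells, but the values of the gates overlapped between rabbits. Both metal carriers that passed were higher in uroplakin cells, and of the 12 metal carriers tested 10 had a negative difference.

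**Figure D5:**
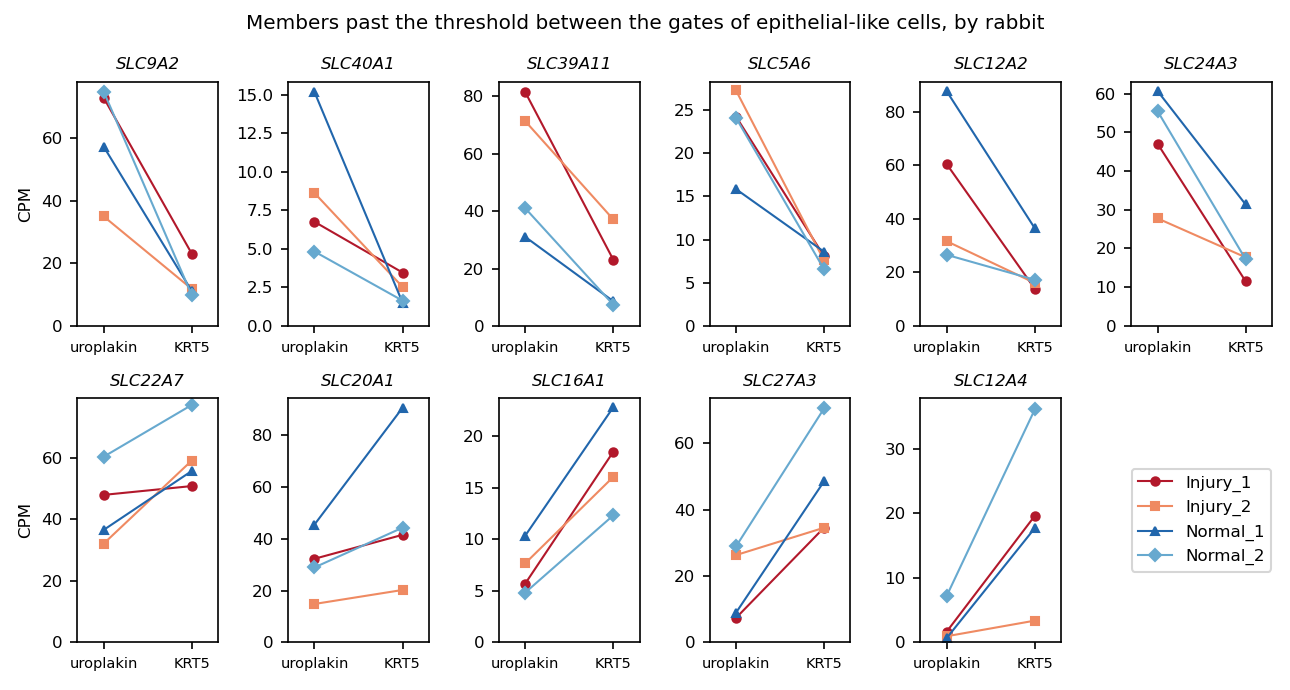
Each panel is 1 of the 11 members past the threshold, the y axis gives CPM, and each line joins the uroplakin cells and the KRT5 cells of 1 rabbit. All 4 lines fall in the 6 upper panels and all 4 rise in the 5 lower ones.

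The members higher in KRT5 cells carried potassium chloride, lactate, fatty acids, phosphate and organic anions. SLC12A4, the potassium-chloride cotransporter, had 19.6, 3.37, 17.7 and 36.1 CPM in KRT5 cells and 1.69, 0.958, 0.689 and 7.24 CPM in uroplakin cells, on 17, 4, 35 and 44 against 8, 2, 1 and 3 UMIs (3.28 ± 0.46, SE, adjusted p = 0.00150). SLC12A4 had a mean of 77.1 CPM in fibroblast-like cells, and the fibroblast markers were higher in the uroplakin than in the KRT5 cells of each rabbit (1254, 957, 448 and 2414 against 1057, 884, 36.4 and 929 CPM). Endothelial markers went the other way (47.3, 48.1, 27.3 and 73.8 CPM in KRT5 against 28.7, 35.4, 20.7 and 12.1 in uroplakin cells). In endothelial-like cells SLC12A4 had a mean of 60.6 CPM, SLC27A3 of 42.5 and SLC20A1 of 45.8. The part of these markers in the results was not tested. SLC16A1, the lactate carrier, had 18.5, 16.03, 22.8 and 12.3 against 5.70, 7.66, 10.3 and 4.82 CPM (1.45 ± 0.29, SE, adjusted p = 0.00840), with no overlap. SLC27A3 had 34.6, 34.6, 48.6 and 70.5 against 7.39, 26.3, 8.96 and 28.9 CPM (1.66 ± 0.34, SE, adjusted p = 0.00856), also with no overlap. SLC20A1 (0.79 ± 0.22, SE, adjusted p = 0.0306) and SLC22A7 (0.63 ± 0.19, SE, adjusted p = 0.0454) were higher in the KRT5 cells of all 4 rabbits and came nearest to the threshold.

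The abundant epithelial carriers did not pass the test between the gates. SLC2A1 had 662, 412, 256 and 256 CPM in KRT5 cells and 643, 434, 296 and 479.9 CPM in uroplakin cells (-0.13 ± 0.17, SE). SLC38A2 had 578, 531, 607 and 646 against 635, 604, 698 and 619.8 CPM (0.03 ± 0.13, SE). A term for whether the difference between the gates itself differed between injured and normal rabbits was past the threshold for none of the 53 members (7 of 5601 genes, 0.125%), with 8 members at an unadjusted p under 0.05 (all genes: 11.9%). The KRT5 cells had the higher median depth in each rabbit (19661, 18424, 14175 and 22635 UMIs against 10986, 14924, 12649 and 18538), and Normal_2 added only 25 uroplakin cells. Without the rabbit as a block 1 member passed, with a mitochondrial limit of 10% 4 passed, and with at least 2 UMIs for a gate 3 passed, in the 3 rabbits that then had enough cells.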

How the data were processed

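The deposited matrices hold UMI counts per gene and cell, which the authors made with Cell Ranger 6.0.1 from Chromium Single Cell 3′ libraries. The genome build is not given in the sources used here. The members and lists were chosen with earlier results of these data known. Cells with at least 500 UMIs, 200 genes and at most 15% mitochondrial UMIs were kept, integrated and clustered with Seurat 5.3.0 (2000 variable genes without the members, 30 components, resolution 0.8). Clusters were named from fixed markers, by rules settled after the clusters were seen: a marker counted as raised at 2 times the median cluster, and clusters with 3 or more genes of a cell-cycle list among their leading genes stayed unnamed. Cluster 26, with MCM5, AURKB and NDC80 among its leading genes, kept the T cell-like name under this rule. Libraries shared 4 to 12 barcodes per pair. Doublets were not removed, and removing the top 5% by Scrublet score (scanpy 1.11.5) was another setting.

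UMIs were summed per sample and class, in classes with at least 20 cells per sample, and tested with edgeR 4.0.16 (filterByExpr, TMM, quasi-likelihood test, Benjamini-Hochberg over all genes of the fit, threshold 0.05). Gates needed 10 cells per rabbit. The SE is the log2 difference over the root of its F statistic. DESeq2 1.42.0, RLE factors, no filter, a replicate block, left-out samples, a 10% mitochondrial limit, resolution 0.3, no integration and members among the clustering genes were the other settings tried. Fits within a gate, a crossed block and the interaction were added after seeing the data. Scripts were tested on simulated data. Named members were those past the threshold (up to 12 per comparison), the 3 highest and the 3 most class-biased of each class at 20 CPM or more, the 2 largest differences each way without overlap, and 22 fixed members, of which 16 were in the matrices under their symbols and not all are reported here. SLC10A6 in fibroblast-like cells, SLC20A1 beside its left-out samples, SLC51A and SLC5A1 were singled out after their values were seen. With 2 samples a group, p-values rest on the spread between single rabbits, and Poisson floors (3 UMIs over a group) cover counting error only.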

Additional observations from a re-analysis of the deposited data

Results flagged for a closer look

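SLC27A3, a fatty acid carrier with acyl-CoA ligase activity, had log2 differences of opposite sign in 2 classes. The difference between injured and normal samples was 1.097 in endothelial-like cells and -1.515 in epithelial-like cells, with both injured samples on one side of both normal samples in each. The difference between the classes was not tested, and neither value passed the threshold. Within the uroplakin cells of the epithelial-like class the groups overlapped (7.39, 26.3, 8.96 and 28.9 CPM, log2 difference -0.08 ± 0.86, SE). Within the KRT5 cells both injured samples lay below both normal ones (34.6, 34.6, 48.6 and 70.5 CPM, log2 difference -1.08 ± 0.33, SE, edgeR adjusted p = 0.139). SLC27A3 was higher in KRT5 cells, which made up 8.13% and 18.4% of the epithelial-like cells of the injured and 32.9% and 33.9% of those of the normal samples. These shares depend on detection as well as on make-up, and their part in the difference was not tested.

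SLC39A6, a zinc importer, had a log2 difference of 0.3661 in smooth muscle and pericyte-like cells, of -0.3809 in fibroblast-like cells and of -0.8821 in macrophage-like cells, again without overlap of the groups in any of the 3 classes. The difference between these classes was not tested, and none of the 3 values passed the threshold. Within each macrophage-like cluster the groups overlapped (27.4, 11.3, 19.5 and 20.4 CPM in cluster 9, and 56.6, 23.1, 67.7 and 52.3 CPM in cluster 15). Cluster 15 held 131 of 522, 162 of 433, 60 of 111 and 39 of 104 macrophage-like cells, and the part of this share in the difference was not tested. Groups of 2 samples are too small to be searched for single outlying samples.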

How the results depend on the processing

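None of the 39 log2 differences followed across the alternative runs turned its direction. These were differences of members past the threshold or among the largest of a class, and not every log2 difference given above. Their size was classed as the same in 411 run values, stronger in 17 and weaker in 46. Of the weaker ones 35 were between the gates and 11 in epithelial-like cells, the 2 comparisons in which members passed. Without a filter on low counts the members past the threshold numbered 14 in epithelial-like, 8 in fibroblast-like, 5 in macrophage-like, 4 in T cell-like and 1 in smooth muscle and pericyte-like cells, and 17 between the gates. DESeq2 called 5 in epithelial-like cells and 1 in fibroblast-like cells. A mitochondrial limit of 10% left 0 in epithelial-like cells and 4 between the gates, at least 2 UMIs for a gate left 3, and members among the clustering genes gave 1 in T cell-like cells. Within the uroplakin cells alone and within the KRT5 cells alone, 0 passed between injured and normal samples. Leaving out 1 sample gave 0 to 6 members in epithelial-like cells (0 without Injury_1 or Injury_2, 6 without Normal_1, 5 without Normal_2), 0 to 2 in fibroblast-like (2 without Normal_1, 1 without Injury_2), 0 to 8 in smooth muscle and pericyte-like (8 without Normal_2, 3 without Normal_1), 0 to 5 in T cell-like (5 without Normal_1, 1 without Normal_2), 0 to 3 in macrophage-like cells (3 without Normal_2, 1 without Injury_2) and 6 to 12 between the gates (6 without Normal_2). In these fits a lone sample is assumed to vary like the other group. The cause of these moves was not tested.

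The replicate numbers are not said to pair rabbits, and same-numbered samples correlated between -0.1084 (neutrophil-like) and 0.1914 (fibroblast-like) in their deviations. With the number as a block, 0 members passed in epithelial-like and 1 in fibroblast-like cells, and the other classes kept a count of 0. The crossed block in neutrophil-like cells gave 0. Without the rabbit as a block 1 member passed between the gates. Over all genes the calls ranged from 5 to 967 in epithelial-like cells (main 117), 57 to 1265 between the gates (1020), 0 to 579 in T cell-like (18), 0 to 892 in smooth muscle and pericyte-like, 0 to 584 in fibroblast-like, 0 to 431 in macrophage-like, 0 to 52 in endothelial-like and 0 to 24 in neutrophil-like cells (0 in each). The summed level of the members in T cell-like cells, 0.0113 percentage points higher in injured samples, was 0.0178 with a mitochondrial limit of 10% and with doublets removed, 0.0253 at resolution 0.3 and -7.5e-05 with members among the clustering genes. Neutrophil-like cells could not be tested at resolution 0.3, without integration or with members among the clustering genes, since both normal samples then had too few cells.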

Other observations

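The members SLC51A and SLC5A1 each had UMIs in the injured samples and none in the normal samples of 1 class, and both were picked after their values were known. SLC51A, a subunit of the organic solute and steroid transporter, had 39, 20, 0 and 0 UMIs in T cell-like cells, which is at least 4.39-fold higher in the injured samples against a floor of 3 UMIs over the normal group. It lay in cluster 21 (36.3 and 29.3 CPM in Injury_1 and Injury_2) and cluster 26 (20.4 and 17.1 CPM), of which the normal samples held 3 and 4 and 2 and 3 cells. SLC5A1, the sodium-glucose cotransporter of gut and kidney, had 31, 12, 0 and 0 UMIs in epithelial-like cells, at least 9.26-fold higher on the same floor. Neither passed the test in edgeR (adjusted p = 0.0966 and 0.0801).

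The 4 unnamed clusters held no member above its highest class mean except SLC39A7, at 154 CPM in cluster 20 against 151 in fibroblast-like cells, among the 3 highest members of each cluster.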
